A study of Homo sapiens with 8 samples.

Results

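Contacts that ran from the β-globin locus past its HS5 side, toward the olfactory receptor genes, made up 631 of 5276 interacting pairs in the deposited CAPTURE-3C-seq lists of HUDEP-2 cells, where pairs are distinct within a list and summed over the 2 lists. A pair was taken when the midpoint of 1 end lay in chr11:5222301-5323175 (hg19) and that of the other lay above this stretch. The end in the locus is called the anchor, and the other the far end. CAPTURE-3C-seq pulls down chosen bait regions with biotinylated dCas9 and guide RNAs after proximity ligation, and reads which other DNA was joined to them. HUDEP-2 cells are human erythroid progenitors, immortalized, with an adult-like globin pattern. The 2 groups were wild-type (WT) cells and cells with a BCL11A knockout (BCL11A KO), both expressing Bio-tagged dCas9 and guide RNAs. Both were kept in an expansion medium with SCF, EPO, dexamethasone and doxycycline, and were moved to a differentiation medium for some days before they were collected. Whether the knockout line is 1 clone is not given in the sources used here. For each genotype the authors merged 3 biological replicates into 1 list, so nothing here has a replicate check, and every test compares 2 lists and covers counting error only. All p-values are those of Fisher's exact test, two-sided. The list held 2966 distinct pairs in WT and 2310 in BCL11A KO. Each interaction carries a BF score, a measure of evidence in which those under 20 were left out and the highest is 150.

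The human β-globin genes lie in the order in which they are used in development, from the embryonic HBE1 through the fetal HBG2 and HBG1 to the adult HBD and HBB. The locus control region (LCR) is their shared enhancer, a row of DNase hypersensitive sites upstream of HBE1, with HS1 nearest the genes and HS5, a site known to bind CTCF, at the outer end. BCL11A is a transcription factor that silences the fetal genes in adult erythroid cells. On both sides the locus is embedded in olfactory receptor genes, which encode odorant receptors of sensory neurons in the nose, and those on the HS5 side begin with the OR51B group.

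Sequences of recurrent ends are shown first, since they are the fragments on which the contacts were read. They were taken from GRCh37, the same build as hg19, on the plus strand. Every end in the lists is 42 bases long, and GATC, a 4-base restriction site, is in capitals. The first sequence is the anchor end in HS3, at chr11:5305798-5305839, which 18 pairs of WT and 18 of BCL11A KO used. It is followed by 2 far ends that 5 pairs each used over both lists, a number that other far ends reached too and none exceeded, and which lay 9.48 and 13.1 kb past the edge of the locus.
HS3 anchor end (chr11:5305798-5305839): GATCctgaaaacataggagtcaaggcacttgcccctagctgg
far end A (chr11:5332634-5332675): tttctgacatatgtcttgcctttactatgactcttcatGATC
far end B (chr11:5336243-5336284): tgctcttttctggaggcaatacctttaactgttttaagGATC
The HS3 anchor end began exactly at a GATC, and far ends A and B ended at one. Far end A was used by 5 pairs of WT, 4 anchored in the LCR and 1 in the HBD upstream region, and by none of BCL11A KO, and it lies in no annotated exon. Far end B was joined to the HBD upstream region in 2 pairs of WT and 3 of BCL11A KO, and it lies in the pseudogene OR51B3P. Of the 308 far ends in WT, 57 began or ended at a GATC (18.5%, Wilson 95% interval 14.6 to 23.2). Of the 285 in BCL11A KO, 64 did (22.5%, 18.0 to 27.6). Among anchor ends the share was lower, at 4.38% in WT (12 of 274, 2.52 to 7.50) and 4.47% in BCL11A KO (11 of 246, 2.51 to 7.83).

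Contacts past the HS5 side took a larger share of the BCL11A KO list than of the WT list. In WT 329 of 2966 pairs were of this kind (11.1%, Wilson 95% interval 10.0 to 12.3). In BCL11A KO 302 of 2310 were (13.1%, 11.8 to 14.5), and the ratio of the shares was 1.18 (95% interval 1.02 to 1.36; exact p = 0.0292). Pairs that left the locus on the other side, past 3'HS1 near HBB, went from 299 (10.1%) in WT to 193 (8.35%) in BCL11A KO. Of the pairs that left the locus on either side, 52.4% of 628 in WT and 61.0% of 495 in BCL11A KO ran past HS5, and this change in the balance of the sides passed the test (exact p = 0.00440). It no longer did with far ends at least 10 kb beyond the edge on either side (50.5% against 56.5%, exact p = 0.0749). The larger share on the HS5 side did not pass where the far end had to lie at least 10 kb beyond the edge (9.07% against 9.96%, ratio 1.10, exact p = 0.276), nor among pairs of the highest BF score (8.53% against 10.0%, exact p = 0.0924).

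The pairs did not come singly. Every one of the 329 in WT and the 302 in BCL11A KO had another pair of the same bait and the same BF score with its far end within 5 kb. Among scores below 150, and with the LCR divided into its sites, all 41 groups of this kind in WT and all 38 in BCL11A KO held an even number of pairs, and 33 of each were of exactly 2. At the score of 150, which 227 pairs of WT and 204 of BCL11A KO had, this was not so. There 15 of 30 groups in WT and 8 of 20 in BCL11A KO were even, and 5 and 2 were of exactly 2. Pairs of 1 group may therefore not be independent measurements, and the intervals and p-values, which count pairs, would then be too narrow. Counted as distinct pairs of 1-kb bins, the share was 22.1% in WT and 27.7% in BCL11A KO (exact p = 0.00697). Pairs of 1 group, with far ends up to 5 kb apart, can still fall in different 1-kb bins, so this count does not remove the dependence.

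**Figure D1:**
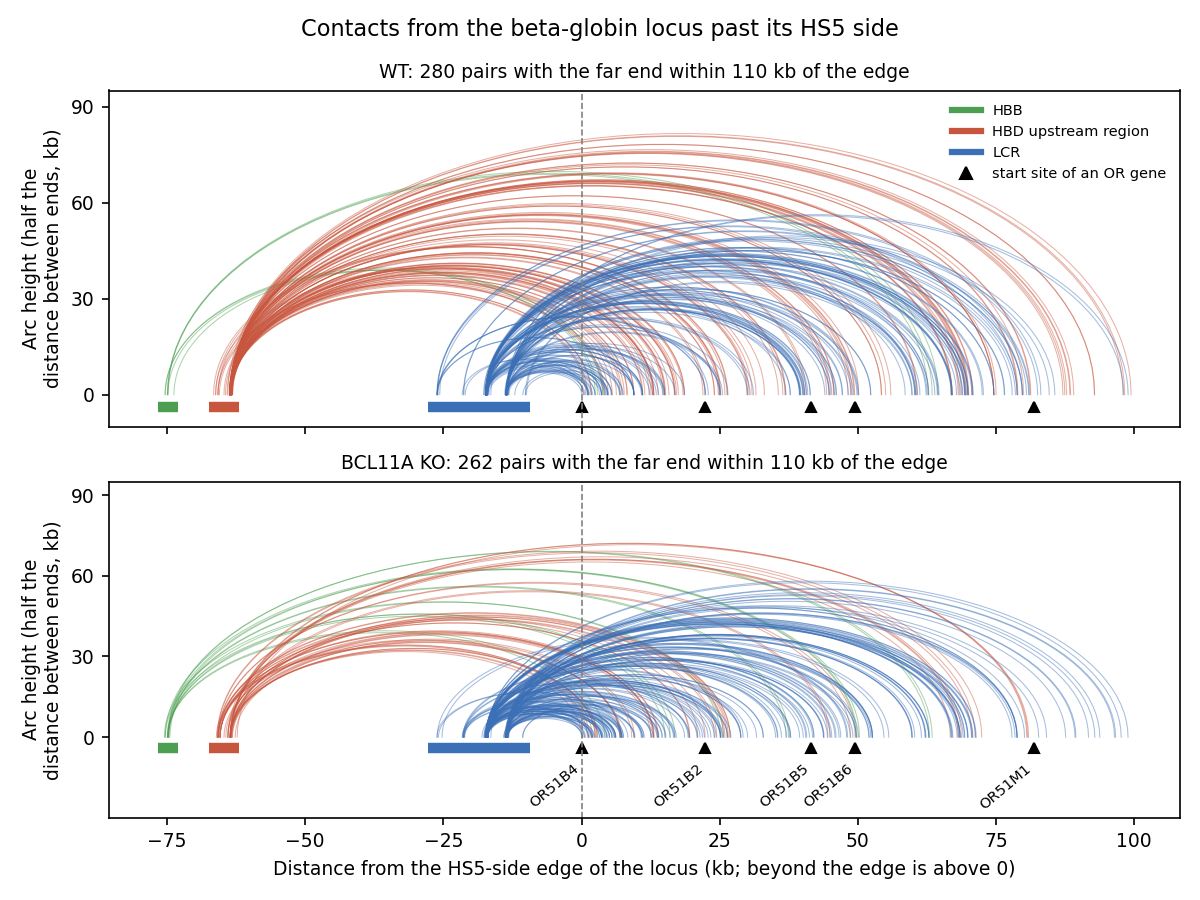
Each arc joins the anchor and the far end of 1 distinct pair; the x axis is the distance from the HS5-side edge of the locus in kb, the y axis is the arc height in kb, 0.5 times the distance between the ends, and colour gives the anchor. Bars mark the HBB, HBD upstream and LCR baits and triangles the start sites of olfactory receptor (OR) genes; the 280 pairs of WT and 262 of BCL11A KO with the far end within 110 kb are drawn, and arcs from the HBD upstream region are fewer in BCL11A KO.

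The anchors changed more than the total did. In WT the contacts were shared between the HBD upstream region, the 5.5 kb above the start site of HBD, with 138 pairs, and the LCR, with 184. In BCL11A KO the HBD upstream region held 53 and the LCR 235. As a share of all pairs, contacts anchored in the HBD upstream region fell from 4.65% (3.95 to 5.47) to 2.29% (1.76 to 2.99), a ratio of 0.493 (0.361 to 0.674; Benjamini-Hochberg adjusted over 5 anchor regions, exact p = 1.23e-05). This fall did not pass among pairs of the highest BF score (ratio 0.713, adjusted exact p = 0.156) or by distinct pairs of 1-kb bins (ratio 0.647, adjusted exact p = 0.0526). Contacts anchored in the LCR rose from 6.20% to 10.2%, a ratio of 1.64 (1.36 to 1.97, adjusted exact p = 7.43e-07). Among the contacts past HS5 alone, the share anchored in the HBD upstream region was 41.9% in WT and 17.5% in BCL11A KO (adjusted exact p = 8.62e-11), and that of the LCR 55.9% and 77.8%.

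HBB, the adult β-globin gene, anchored 7 of these pairs in WT (0.236% of all pairs) and 14 in BCL11A KO (0.606%), which did not pass after adjustment (adjusted exact p = 0.0760). Set against the pairs with an end in the HBB bait, the values were 7 of 198 (3.54%) and 14 of 125 (11.2%), which did pass (adjusted exact p = 0.0207). In WT no far end joined to HBB lay between 4.03 and 62.7 kb past the edge, so few separate places lay behind this test. As a share of all distinct pairs of 1-kb bins, HBB anchored 7 and 12, which did not pass (adjusted exact p = 0.179). The gain rested on lower scores, since among pairs of the highest BF score HBB anchored 7 in WT and 6 in BCL11A KO. The fetal genes HBG1 and HBG2 anchored none of 186 pairs with an end in their bait in WT and none of 193 in BCL11A KO. With 3 counts taken as the most that a count of 0 allows, the shares were at most 1.61% and 1.55%. No pair was anchored in the rest of the locus, the remaining region of the adjustment. The lists hold interactions from the 4 captured baits, so this 0 followed from the design.

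The direction of the HBD upstream result depended on what it was set against. All contacts of this region shrank in BCL11A KO, from 1786 pairs with an end there to 1013. Of these, 7.73% ran past HS5 in WT and 5.23% in BCL11A KO (ratio 0.677, adjusted exact p = 0.0207). Of the pairs that left the region at all, 951 in WT and 268 in BCL11A KO, the share past HS5 was 14.5% in WT and 19.8% in BCL11A KO, the opposite direction (ratio 1.36, adjusted exact p = 0.0604). For the LCR both ways of counting gave a rise, from 15.4% to 19.2% of pairs with an end in the LCR bait (ratio 1.25, adjusted exact p = 0.0207) and from 20.1% to 26.5% of pairs that left it (ratio 1.32, adjusted exact p = 0.00586). Set against the pairs with an end in the site, no single site from HS1 to HS5 passed. All pairs with an end in HS3 went from 568 to 693 and those with an end in HS1 from 136 to 53. The part of this mix of sites in the rise was not tested.

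**Figure D2:**
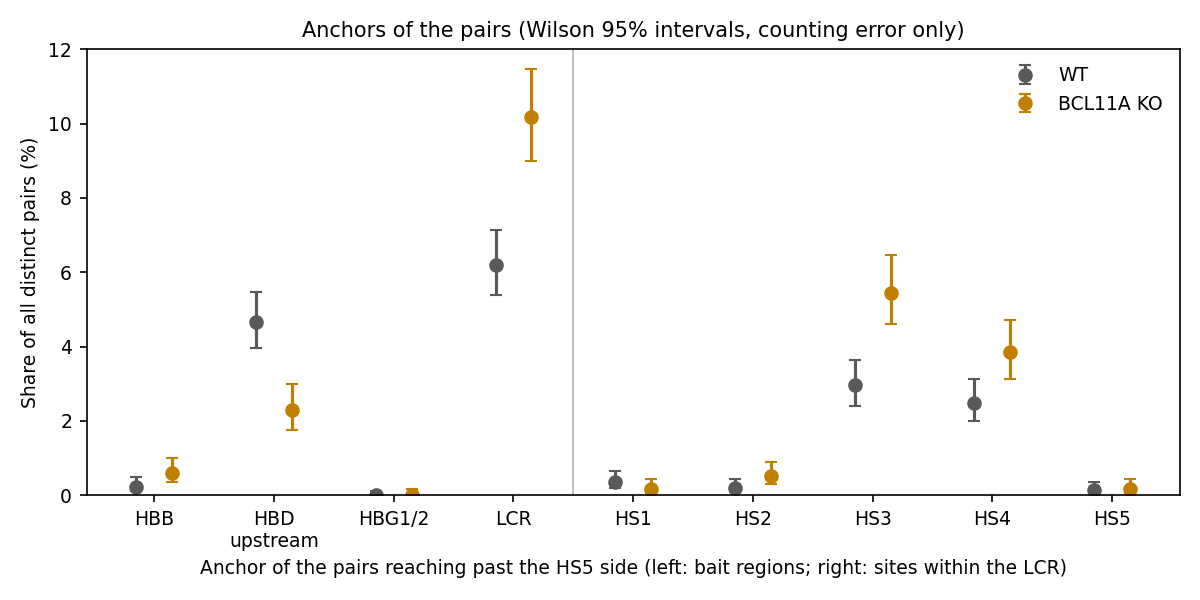
Points give the share of all distinct pairs (y axis, %) that ran past the HS5 side from each anchor (x axis, bait regions at the left and the sites within the LCR at the right), with Wilson 95% intervals; grey is WT (n = 2966 pairs) and ochre BCL11A KO (n = 2310 pairs). The intervals of the 2 lists are apart for the HBD upstream region, lower in BCL11A KO, and for the LCR, HS3 and HS4, higher in BCL11A KO.

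Within the HBD upstream region the anchors crowded at its far end. In WT, 89 of the 138 anchors lay 3 to 4 kb above the start site of HBD and 39 lay 4 to 5 kb above it, and the 2 kb from 1 to 3 kb above it held 6 and 3. In BCL11A KO the counts at 3 to 4 and 4 to 5 kb were 24 and 8, and those at 1 to 2 and 2 to 3 kb were 11 and 9. The lower count in BCL11A KO was thus that at 3 to 5 kb above HBD. The 1-kb division was chosen after the values had been seen, so it was given no test. All pairs with an end at 3 to 5 kb moved in the same way. They went from 808 to 283 at 3 to 4 kb and from 248 to 36 at 4 to 5 kb, while 638 and 598 had an end at 1 to 2 kb and 637 and 635 at 2 to 3 kb. The share of them that ran past HS5 was 11.01% in WT and 8.48% in BCL11A KO at 3 to 4 kb, and 15.7% and 22.2% at 4 to 5 kb.

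**Figure D3:**
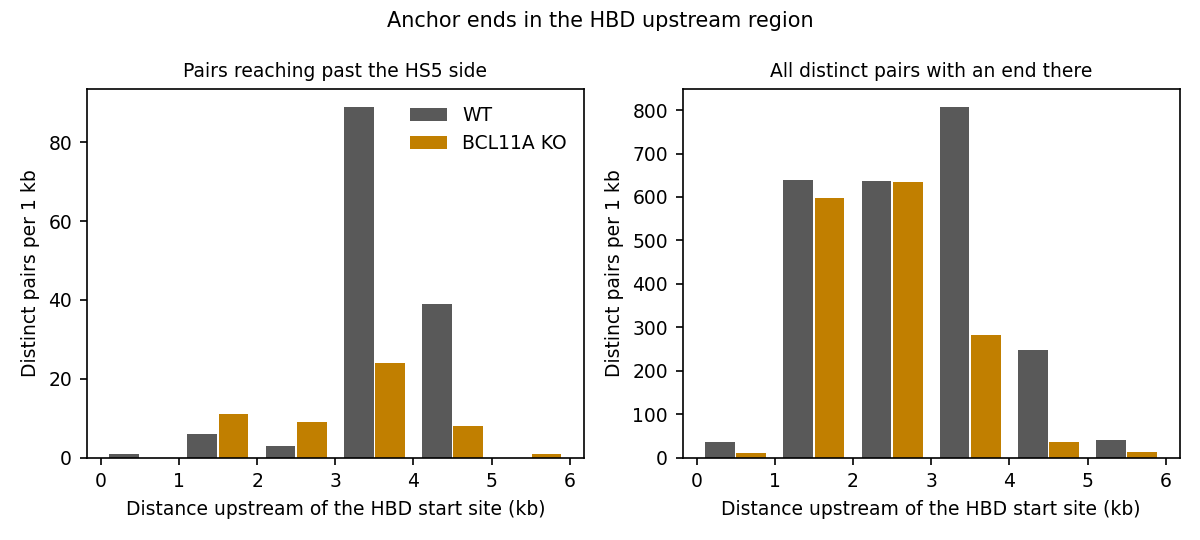
Bars count distinct pairs (y axis) by the position of the anchor end in 1-kb steps upstream of the HBD start site (x axis, kb), for pairs that ran past the HS5 side (left) and for all distinct pairs with an end there (right). At 3 to 4 kb the left panel falls from 89 in WT to 24 in BCL11A KO, and the right panel from 808 to 283.

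In the LCR, HS3 and HS4 carried nearly all of these contacts. HS3 anchored 88 pairs in WT (2.97% of all pairs) and 126 in BCL11A KO (5.45%), a ratio of 1.84 (adjusted over 6 parts of the LCR, exact p = 4.87e-05). HS4 anchored 74 (2.49%) and 89 (3.85%), a ratio of 1.54 (adjusted exact p = 0.0149). HS5, although nearest to the far ends, anchored 4 pairs in each list, and 48 pairs in WT and 31 in BCL11A KO had an end in it at all. HS1 anchored 11 and 4 and HS2, the site with the best-known enhancer activity, 6 and 12, and neither difference passed (adjusted exact p = 0.306 and 0.116). These counts depended on the score, since all contacts past HS5 from both sites had the highest BF score in WT and none did in BCL11A KO. Among pairs of that score HS1 anchored 11 in WT and none in BCL11A KO, which passed (adjusted exact p = 0.0104). HS2 anchored 6 and none, the opposite direction (adjusted exact p = 0.0613). Contacts of HS1 as a whole were also fewer in BCL11A KO, with 53 pairs having an end there against 136 in WT. Over all scores, 8.09% of the HS1 pairs in WT and 7.55% in BCL11A KO ran past HS5, a ratio of 0.933. For pairs of the highest BF score alone, this share of the HS1 pairs was not tested. The rise at HS3 and HS4 went with a rise of all contacts of these sites. Of the pairs with an end in HS3, 15.5% of 568 in WT and 18.2% of 693 in BCL11A KO ran past HS5 (adjusted exact p = 0.569). Of those with an end in HS4, the values were 20.9% of 354 and 20.6% of 431 (adjusted exact p = 1.00), a ratio of 0.988, so that relative to its own contacts HS4 did not go up. The HS3 anchor end printed above held 5.47% of all contacts past HS5 in WT and 5.96% in BCL11A KO, and no other anchor end was used by more than 6 pairs over both lists.

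Most far ends lay close to the locus. Past the edge, the far ends of WT lay at a median of 47.2 kb (quartiles 14.9 and 76.5 kb) and those of BCL11A KO at 35.9 kb (11.1 and 69.0 kb). Those anchored in the HBD upstream region had medians of 48.5 kb in WT and 24.5 kb in BCL11A KO, and those anchored in the LCR 47.2 and 40.1 kb. The 7 far ends joined to HBB in WT lay at 2.49 to 64.5 kb and the 14 in BCL11A KO at 2.84 to 63.5 kb. Within 20 kb of the edge lay 30.1% in WT (99 of 329, 25.4 to 35.3) and 36.4% in BCL11A KO (110 of 302, 31.2 to 41.99), a difference that did not pass (exact p = 0.108). Within 50 kb the values were 53.2% and 62.3% (exact p = 0.0240), so the shorter reach in BCL11A KO depended on where the line was drawn.

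The contacts thinned abruptly near 100 kb past the edge. In WT 280 of 329 (85.1%) and in BCL11A KO 262 of 302 (86.8%) lay within 100 kb. The last of these far ends lay at 99.4 kb in WT and 98.9 kb in BCL11A KO, and the next one outward at 137.1 and 129.1 kb. From the LCR the gap ran from 98.9 to 137.1 kb in WT and from 98.9 to 129.1 kb in BCL11A KO. From the HBD upstream region it ran from 99.4 to 144.9 kb in WT, and in BCL11A KO the last far end came sooner, with a gap from 80.9 to 129.8 kb. The LCR and the HBD upstream region lie at different distances from the edge, so the last far ends of WT, at 98.9 and 99.4 kb past it, lay at different distances from their anchors. Pairs per kb went from 2.10 between 50 and 100 kb to 0.0800 between 100 and 200 kb in WT, and from 1.48 to 0.180 in BCL11A KO. The first 10 kb without any far end, from 100 to 110 kb, hold 19 GATC sites, and 0.61% of their 42-base stretches occur again on chromosome 11. The 3'HS1 side thinned past 100 kb too, from 130 pairs between 50 and 100 kb to 17 between 100 and 200 kb in WT, and from 89 to 18 in BCL11A KO. There far ends lay at 104.8 and 109.3 kb in WT and at 104.96 and 105.4 kb in BCL11A KO, and the longest gap ran from 119.3 to 154.8 kb in WT and from 130.8 to 156.1 kb in BCL11A KO. The difference between the sides in this respect was not tested.

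**Figure D4:**
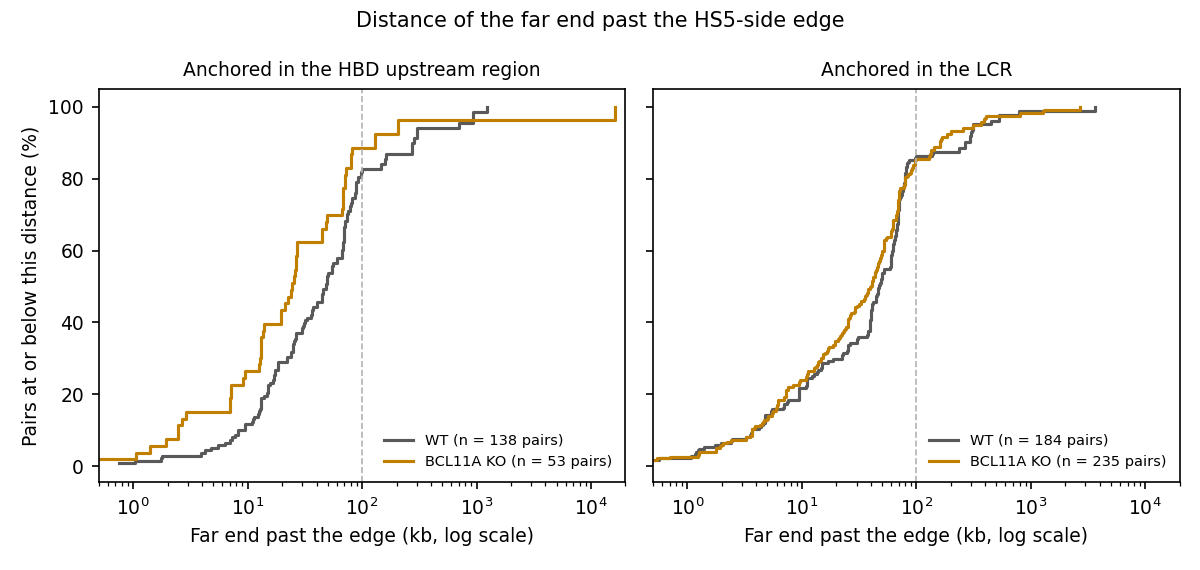
Curves give the share of pairs (y axis, %) with the far end at or below a distance past the edge (x axis, kb, log scale), for pairs anchored in the HBD upstream region (left) and the LCR (right), with WT in grey and BCL11A KO in ochre; the dashed line is at 100 kb. In the left panel the BCL11A KO curve lies above the WT curve up to 100 kb (medians 24.5 and 48.5 kb), and in the right panel the curves lie closer together (40.1 and 47.2 kb).

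Up to 100 kb the far ends were most numerous next to the edge, and their counts rose and fell again farther out, at partly different places in the lists. The 5 kb next to the edge (chr11:5323176-5328175), just upstream of OR51B4, held the most in both lists, 37 pairs in WT (exact Poisson 95% interval 26.1 to 51.0) and 40 in BCL11A KO (28.6 to 54.5). The next 5 kb held 23 and 32, and those from 10 to 15 kb 23 and 22. Between 25 and 30 kb WT had 11 and BCL11A KO 21, more than in any bin farther out of that list. Between 30 and 35 kb the counts were 8 and 4, between 45 and 50 kb, where OR51B6 starts, 19 and 16, and between 55 and 60 kb 5 and 4. The highest count beyond 30 kb in both lists was at 65 to 70 kb (chr11:5388176-5393175), with 27 pairs in WT (17.8 to 39.3) and 20 in BCL11A KO (12.2 to 30.9). It lay between OR51B6 and OR51M1, over no canonical transcript of a named protein-coding gene, and its anchors were the LCR in 16 and the HBD upstream region in 11 pairs of WT, and the LCR in 16 and the HBD upstream region in 4 of BCL11A KO. The amount of repeated sequence differs along this side. Between 60 and 70 kb, 0.83% of 42-base stretches occur again on chromosome 11, against 32.9% between 50 and 60 kb, with 11 far ends in WT and 14 in BCL11A KO, and 35.5% between 70 and 80 kb, with 26 and 14. Counts were also low where little is repeated. Between 80 and 90 kb (0.02%) there were 15 and 9 far ends, and between 30 and 40 kb (3.14%) 21 and 15. Reads with several places in the genome had been left out by the authors, and none of the 489 distinct far ends up to 110 kb lay at a repeated stretch. The part of repeated sequence in the shape of the profile was not tested.

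**Figure D5:**
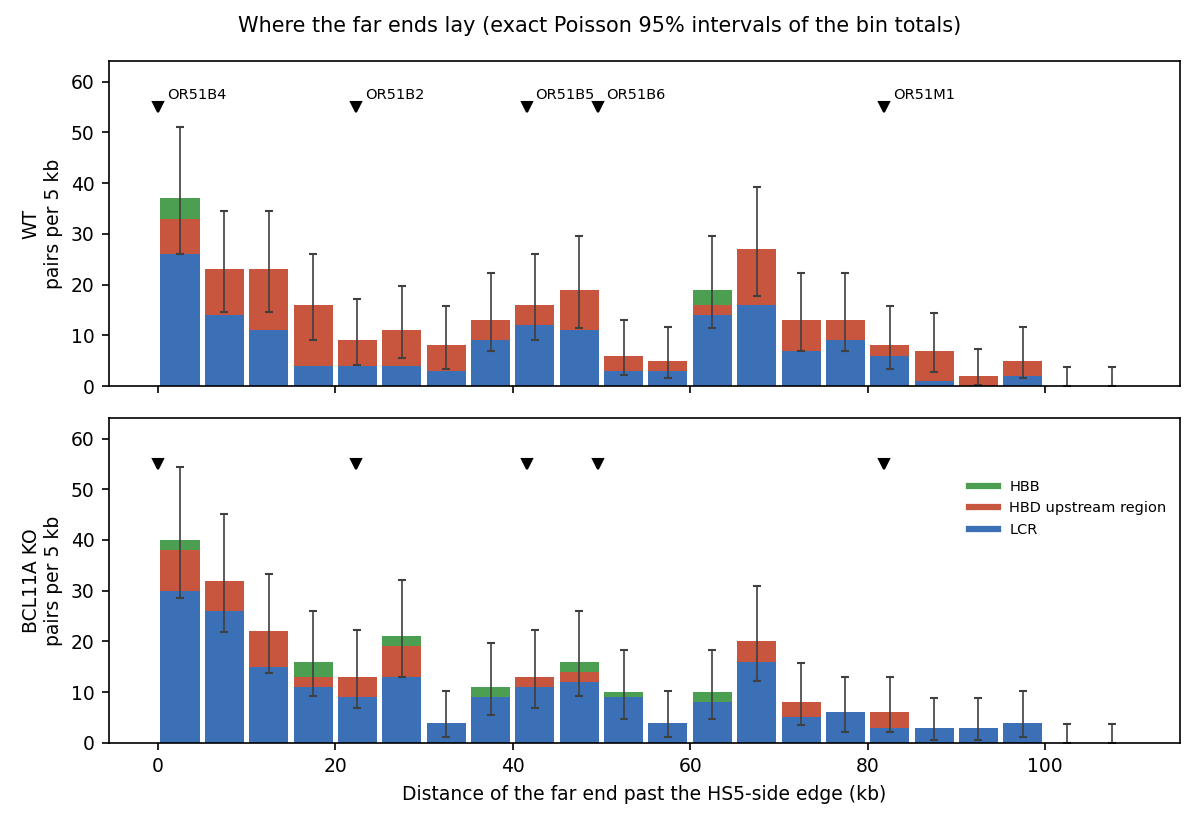
Bars count far ends per 5 kb (y axis) against the distance past the HS5-side edge (x axis, kb) in WT (top) and BCL11A KO (bottom), coloured by anchor, with exact Poisson 95% intervals of the totals; triangles mark start sites of olfactory receptor genes. In both lists counts are highest next to the edge (37 and 40), rise again at 65 to 70 kb (27 and 20) and are 0 from 100 to 110 kb.

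No 5-kb stretch on this side passed the test of a difference between the lists. Over the whole region, the locus included, 69 bins were tested and 7 passed, a background of 10.1%, and of the 23 bins past HS5 none did (lowest adjusted exact p = 0.0605, and 3 bins at an unadjusted p under 0.05). At least a 2-fold difference of shares was found in 16 of the 69 bins, a background of 23.2%, and in 4 of the 23 past HS5. All 4 were higher in BCL11A KO, as were 10 of the 16 in all and 6 of the 12 elsewhere. They were the bins at 25 to 30 kb, past OR51B2, where WT had 11 pairs and BCL11A KO 21 (adjusted exact p = 0.0993), at 50 to 55 kb, which takes in the end of OR51B6, with 6 and 10 (adjusted exact p = 0.384), at 130 to 135 kb with 0 and 6 (adjusted exact p = 0.0605), and at 160 to 165 kb with 2 and 5 (adjusted exact p = 0.252). In bins of 10 kb the stretch from 20 to 30 kb, around OR51B2, did pass, with 34 pairs in BCL11A KO against 20 in WT (adjusted exact p = 0.0467). Among pairs of the highest BF score the bin at 50 to 55 kb passed, with 9 pairs in BCL11A KO against 1 in WT (adjusted exact p = 0.0211), and when both ends had to be 10 kb apart or more the one at 130 to 135 kb did, with 6 against 0 (adjusted exact p = 0.0488).

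The named genes nearest to the far ends were mostly olfactory receptor genes. A protein-coding gene of this family was the nearest named gene, by canonical transcript, to 308 of 329 far ends in WT (93.6%) and 284 of 302 in BCL11A KO (94.0%). All 5 named protein-coding genes within 110 kb of the edge belong to it, so by this count far ends near the edge can hardly have another neighbour. Genes without a name were left out, and the canonical transcript of an unnamed gene spans far ends A and B. By nearest gene, OR51B4 (chr11:5322244-5323176), whose start site is at the edge itself, had 60 far ends in WT and 72 in BCL11A KO. OR51B2 (chr11:5344589-5345527) had 65 and 73. OR51B5 (chr11:5363816-5364754) had 33 and 29, and OR51B6 (chr11:5372738-5373676) had 47 and 38. OR51M1 (chr11:5405042-5414493), the farthest of the 5, had 75 and 50.

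Few far ends lay in the genes themselves. The canonical transcripts of olfactory receptor genes held 22 far ends in WT and 18 in BCL11A KO. OR51M1 held 10 and 5 of them, OR51B6 4 and 6, OR51B5 4 and 2, OR51B2 2 and 3, and OR51B4 none, as all but its start lies within the locus as bounded here. Within 1 kb of the start site the counts were 10 and 10 at OR51B6, 5 and 7 at OR51B4, 5 and 5 at OR51B2, 5 and 5 at OR51B5 and 5 and 2 at OR51M1. Within 5 kb of the start site the counts were 24 and 36 at OR51B2, 34 and 24 at OR51B5, 28 and 27 at OR51B6, 19 and 12 at OR51M1 and 37 and 40 at OR51B4, and these differences were given no test. In the full annotation HBG2 and HBE1 have long transcripts that reach across this stretch from within the locus, and the span of OR51B5 reaches down to chr11:5324674. All 3 genes are on the minus strand, with starts at or within 1 kb of chr11:5526882. Counting such spans 285 far ends in WT and 248 in BCL11A KO lay in an intron of a gene. An exon of any annotated transcript held 43 (13.1%) in WT and 54 (17.9%) in BCL11A KO.

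Beyond 100 kb lay 49 pairs in WT, of which 24 were anchored in the HBD upstream region and 25 in the LCR, and 40 in BCL11A KO, of which 6 and 34 were. Their scores were lower than those of the nearer pairs, with 26.5% at the highest BF score in WT and 10.0% in BCL11A KO, against 85.9% and 78.2% for far ends within 20 kb. Beyond 200 kb the 41 pairs of WT fell into 17 groups of the same bait and score with far ends within 5 kb of each other, and the 22 of BCL11A KO into 11. The canonical transcript of TRIM6, which encodes a ubiquitin ligase of the antiviral TRIM family (chr11:5617867-5634182), held 9 far ends in WT and none in BCL11A KO. The read-through gene TRIM6-TRIM34, which overlaps it and cannot be told apart from it over that stretch, held 10 and 2. The farthest far ends lay 3655 kb past the edge in WT, in TMEM9B, and 16241 kb past it in BCL11A KO, in NELL1, genes that were singled out after their values had been seen. The farthest contact in BCL11A KO was a set of 2 pairs with the same anchor end and far ends 1 bp apart.

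Base for base, 3 pairs past HS5 were in both lists, 0.912% of those in WT and 0.993% of those in BCL11A KO. Of pairs within the locus 377 were in both, 16.1% and 20.8%, and of pairs past 3'HS1 none was. How many 1-kb bins the lists would share by chance was not tested. Of the 1-kb bins that held a far end, 64 were in both, 57.7% of the 111 in WT and 60.4% of the 106 in BCL11A KO. Of distinct pairs of 1-kb bins, 67 were in both, 31.3% of those in WT and 31.5% of those in BCL11A KO.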

How the data were processed

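CAPTURE-3C-seq reads that aligned to exactly 1 place in hg19 were kept by the authors (Bowtie2 2.2.8 and Picard are named in the submitters' processing notes), who merged 3 biological replicates per genotype and scored interactions with their MAXIM software. The values the authors deposited are the positions of both ends and the BF score, with no read number per interaction, so the depth is unknown. The single-replicate samples were not analysed here. The restriction enzyme is not given in the sources used here. Of 5800 distinct ends, 415 began or ended at GATC as placed, and at most 44 when shifted by up to 4 bp.

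Mirrored and repeated lines (6390 in WT, 4844 in BCL11A KO) were collapsed to distinct pairs. Baits and 2-kb site windows were read from the drawn browser view as distances from start sites, and placed on GRCh37 with canonical transcripts of GENCODE 44. Shares have Wilson 95% intervals and counts exact Poisson intervals. The test throughout was Fisher's exact, two-sided (scipy 1.17.1), Benjamini-Hochberg adjusted within a family. It was also run on simulated lists in which the pooled pairs were shuffled singly. Those lists lack the groups of pairs described above, so they cannot show that the error rate holds for these data. Bins needed at least 5 pairs over both lists. Genes named are the OR51B and OR51M1 genes within reach and those with at least 5 far ends in the canonical transcript, and bins named are those with the most pairs per list and those that differ at least 2-fold. Other genes and bins named, which the far-end profile and the farthest pairs needed, were chosen after their values were seen. A count of 0 allows up to 3. Members, regions and lists were chosen with earlier results of these data known. Not every recurrent far end is reported here.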

Additional observations from a re-analysis of the deposited data

How the results depend on the processing

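Values are the ratio of the share in BCL11A KO to that in WT. The share anchored in the LCR kept its direction and passed the test in all 9 alternatives. The share of all contacts past HS5 no longer passed with the highest BF score only (1.17) or with far ends at least 10 kb beyond the edge (1.10), and the balance of the sides no longer passed with the latter (1.12). For the HBD upstream region it no longer passed with the highest BF score (0.713) or by pairs of 1-kb bins (0.647), and turned over among pairs that leave that region (1.36). HBB passed when pairs were at least 1 kb (2.87) or 10 kb apart (2.84), when pairs within 10 bp counted once (2.78), and against pairs with an end in, or leaving, its bait (3.17 in both). Against pairs with an end in the site, HS3 no longer passed (1.17) and HS4 turned over (0.988). HS4 also no longer passed among contacts past HS5 alone (1.31), with the highest BF score (1.50) or by pairs of 1-kb bins (1.47), and HS5 turned over by pairs of 1-kb bins (0.946), with 4 and 3 of them. The share near the edge passed at 50 kb (1.17). The number of bins called in the whole table was 7 at 5 kb, 12 at 2 kb, 11 with the highest BF score and 3 by pairs of 1-kb bins, of which 0, 0, 1 and 0 lay past HS5. With the highest BF score HS1 and HS2 held no pair in BCL11A KO. Tested with that 0 as it is, HS1 passed and HS2 turned over without passing. With 3 counts in place of that 0, the ratios were at most 0.356 for HS1 and 0.652 for HS2, and these bounds were not tested. HS5 held none in either list, so it has no ratio there. Denominators of a bait, a site or the pairs that leave a bait, and the merging of pairs within 10 bp, were chosen after seeing the data. The cause of these changes was not tested.

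No paired analysis was possible because the deposited lists merge the 3 replicates of each genotype, so leaving out a replicate was not run. Read numbers are not in the lists, and a count of 0 allows up to 0.101% of all pairs in WT and 0.130% in BCL11A KO.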
